A study of Homo sapiens with 12 samples.

Results

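The comparison described here is the late response to epidermal growth factor (EGF) in HCC70 cells that carry an shRNA against LAD1. It sets the 2 libraries made after 240 min of EGF against the 2 made at 0 min, 4 of the 12 libraries of the series, chosen by their labels and not by any measured value. HCC70 is an established line from a human breast cancer of the triple-negative, basal-like kind. All cells went overnight without serum. The shLAD1 cells were sampled without EGF (0 min) or after 40 or 240 min of 50 ng/ml EGF, and cells with a scrambled shRNA (scramble cells) were sampled at the same times, with 2 libraries a group. Only 1 shRNA against LAD1 is named in the labels. No library was taken at 240 min without EGF, so the effect of EGF and that of time in culture cannot be told apart. The labels do not say whether libraries with different numbers come from separate cultures, so p-values measure only the spread between these libraries, which may be technical.

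EGF binds EGFR, a receptor tyrosine kinase that activates the RAS-ERK and PI3K-AKT cascades. ERK activity first induces short-lived immediate early transcription factors, and a later wave holds feedback inhibitors, cytokines, adhesion genes and genes of cell growth. AKT excludes FOXO transcription factors from the nucleus, and genes that FOXO factors keep on in starved cells are known to fall after growth factor addition. SRF and its cofactor MRTF, which senses the pool of free actin, drive many cytoskeletal genes. LAD1 encodes ladinin-1, a protein linked to basement membranes and to the actin cytoskeleton.

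The 4 libraries held 12588422 to 14140995 reads. Values are normalized counts, that is reads divided by a size factor of each library. The 10 most abundant genes took 3.42% to 3.45% of the reads at 0 min and 3.81% to 3.93% at 240 min. LAD1, the target of the shRNA, stood at 1091 and 865 normalized counts at 0 min, 1181 and 971 at 40 min and 2535 and 2297 at 240 min in shLAD1 cells, and at 5925 and 6406 at 0 min and 9102 and 10194 at 240 min in scramble cells. Every shLAD1 library lay below each of these scramble libraries. All 11 basal epithelial markers passed the filter on low values, and their summed level was 86075 and 117488 normalized counts at 0 min and 125284 and 160635 at 240 min. Of 9 luminal epithelial markers 8 passed the filter, and PGR was at 0 in all 4 libraries. The luminal sum was 55057 and 50537 at 0 min and 82005 and 75586 at 240 min. Of 8 fibroblast markers 6 were below 10 normalized counts and DCN was at 0 in all 4 libraries. Of 5 immune markers 4 were below 10. In bulk RNA, fewer cells that express a gene and less RNA per cell cannot be told apart.

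Stretches around annotated transcription starts are printed for genes of the groups described further on, to show which known motif letters they carry. They come from RefSeq on GRCh38.p14, each is read 5′ to 3′ on the gene's own strand, and positions count from the annotated start. Capitals mark the motif named for each gene: the AP-1 motif TGANTCA in the chemokine gene CXCL8, the kB motif in the chemokine gene CXCL1, the CArG box of SRF in SRF itself and in the actin gene ACTG1, the E-box CACGTG in the ribosome biogenesis genes WDR43 and NOP2, the cell cycle element TTTGAA (CHR, either strand) in TOP2A and the forkhead motif GTAAACA in TXNIP.
CXCL8, chr4:73740372-73740521, plus strand: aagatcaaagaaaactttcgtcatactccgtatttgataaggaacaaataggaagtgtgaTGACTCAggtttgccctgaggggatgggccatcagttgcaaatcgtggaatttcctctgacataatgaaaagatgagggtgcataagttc
CXCL1, chr4:73869243-73869392, plus strand: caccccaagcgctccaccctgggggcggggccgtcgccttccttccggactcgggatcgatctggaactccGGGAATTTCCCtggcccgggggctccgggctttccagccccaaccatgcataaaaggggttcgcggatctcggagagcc
SRF, chr6:43171119-43171268, plus strand: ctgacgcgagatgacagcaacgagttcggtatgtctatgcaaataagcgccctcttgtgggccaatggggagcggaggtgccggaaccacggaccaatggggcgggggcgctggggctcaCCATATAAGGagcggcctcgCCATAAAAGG
ACTG1, chr17:81512804-81512953, minus strand: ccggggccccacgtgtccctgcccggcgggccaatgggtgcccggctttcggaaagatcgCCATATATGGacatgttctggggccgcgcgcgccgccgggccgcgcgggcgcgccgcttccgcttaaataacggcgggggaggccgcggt
WDR43, chr2:28894658-28894687, plus strand: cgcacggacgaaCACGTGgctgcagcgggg
NOP2, chr12:6568242-6568271, minus strand: gctaggtccggattgCACGTGgagggccgc
TOP2A, chr17:40417997-40418146, minus strand: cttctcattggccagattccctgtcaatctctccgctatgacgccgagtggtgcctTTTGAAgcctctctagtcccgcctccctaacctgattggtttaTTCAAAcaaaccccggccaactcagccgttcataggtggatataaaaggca
TXNIP, chr1:145996614-145996763, minus strand: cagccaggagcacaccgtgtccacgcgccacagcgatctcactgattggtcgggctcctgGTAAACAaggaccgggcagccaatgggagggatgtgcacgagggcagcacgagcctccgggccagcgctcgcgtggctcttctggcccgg
The kB letters of CXCL1 hold 2 overlapping matches, from -79 and -78. The CArG boxes begin at -30 and -10 in SRF and at -94 in ACTG1, and the AP-1 motif of CXCL8 at -137. The E-boxes begin 4 bases past the annotated start in WDR43 and 36 past it in NOP2, so they lie in transcribed sequence and not upstream. A match describes letters and says nothing of binding.

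Motifs were counted on both strands from 250 bases before to 50 after the first listed start of each gene. Of 18 NF-kB, chemokine and cytokine genes with such a window 11 (61.1%) held the kB motif, against 5.7% of all 27305 genes with a window. The AP-1 motif, printed for CXCL8, was in 2 of these 18 (11.1%), near the 7.8% of all genes. Of 26 actin cytoskeleton genes 5 (19.2%) held a CArG box, against 1.3%. Of 24 ribosome biogenesis genes 8 (33.3%) held the E-box, against 7.4%. Of 22 mitosis genes 15 (68.2%) held the CHR letters, against 15.4%, and of 22 genes repressed by growth factors 4 (18.2%) held GTAAACA, against 3.4%. The lists were composed from general knowledge, in part of such motifs, so the shares only describe them.

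Between 0 and 240 min 2585 of 13950 genes tested changed (18.5%; limma-trend, Benjamini-Hochberg adjusted p under 0.05, here "called"). Of these 1502 rose (10.8% of genes tested) and 1083 fell (7.76%). Most changes were small: 2070 of the called genes (80.1%) moved by less than 2-fold, and the median called rise and fall were 0.60 and -0.60 on the log2 scale. More than 2-fold, 311 genes rose (2.23%) and 204 fell (1.46%). Beyond a log2 change of 2 there were 66 rises and 18 falls, and beyond 3 there were 12 and 2. With the replicate number as a block, as 1 offset shared by shLAD1 and scramble cells, 4249 genes were called (30.5%). They were 2398 higher (17.2%) and 1851 lower (13.3%), among them 2584 of the 2585. A block within each shRNA, which pairs the shLAD1 libraries separately, called 6450 genes (3440 higher, 3010 lower), among them all 2585. List counts given with the replicate block are from the shared offset. Rises made up 58.1% of these 2585 calls, but 47.4% after upper-quartile scaling and 34.7% after scaling to the total count, which moves the median of all genes by -0.121. The 0 and 240 min libraries did not overlap in 7449 of the genes tested (53.4%). For the largest rises and falls described next that was a condition of their choice. Members of the gene lists were mostly named for the smallest adjusted p of their list. That choice favours close replicates and groups that lie apart. Leaving out the second 0 min library gave 1374 calls, and leaving out the second 240 min library gave 1303.

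**Figure D1:**
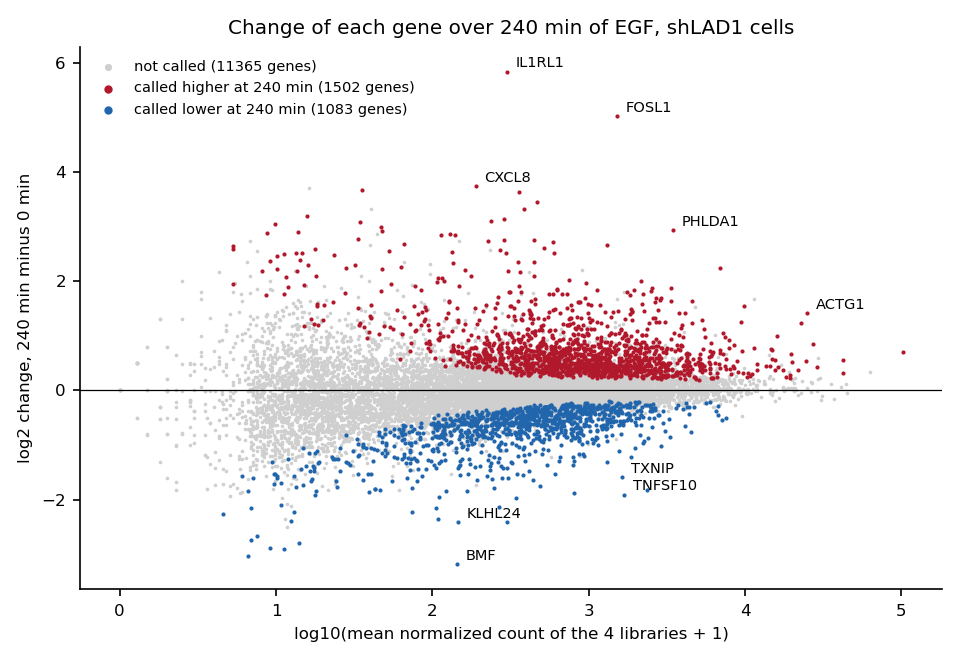
Each point is 1 of 13950 genes in shLAD1 cells, by its level (x axis, log scale) and its log2 change from 0 to 240 min (y axis), with called rises and falls coloured. The 1502 rises reach further from 0 than the 1083 falls, with 12 rises and 2 falls beyond a log2 change of 3.

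IL1RL1, the receptor of the alarmin interleukin 33, had the largest rise. Its normalized counts were 5.13 and 12.2 at 0 min and 298 and 888 at 240 min, and it rose by 5.84 ± 0.80 (log2 of the normalized count + 1, ± standard error; adjusted p = 0.00173, limma-trend). FOSL1, a subunit of the AP-1 transcription factor, went from 113 and 70.2 to 2557 and 3320, a rise of 5.02 ± 0.30 (adjusted p = 7.42e-05). For both genes the groups lay far apart. The chemokine CXCL8 stood at 17.5 and 30.5 and then at 204 and 503, a rise of 3.74 ± 0.40. CXCL1, a related chemokine that also attracts neutrophils, stood at 69.8 and 78.4 and then at 627 and 1083, a rise of 3.46 ± 0.24. LIF, a cytokine of the interleukin 6 family, stood at 47.2 and 66.2 and then at 389 and 641, a rise of 3.14 ± 0.28. In each of these 3 secreted factors the second 240 min library was the higher one.

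Other large rises included genes of ERK feedback and of metabolism. DUSP6, a phosphatase that switches off ERK, stood at 78.0 and 34.6 normalized counts and then at 700 and 625, a rise of 3.64 ± 0.40. PHLDA1, a feedback regulator of receptor tyrosine kinases, went from 1110 and 570 to 6567 and 5587, a rise of 2.93 ± 0.28. Both had their higher value in the first library at either time. DHRS9, a short-chain dehydrogenase, went from 69.8 and 63.1 to 529 and 867, a rise of 3.33 ± 0.22. AGPAT9, an acyltransferase of glycerolipid synthesis, went from 71.9 and 31.5 to 431 and 410, a rise of 3.11 ± 0.39, and GLIPR1 went from 27.7 and 32.6 to 192 and 260, a rise of 2.86 ± 0.32. The adjusted p of these 5 genes ran from 7.42e-05 to 0.00106. SOCS3, which inhibits JAK-STAT signalling, went from 22.6 and 25.4 to 107 and 296, a rise of 2.85 ± 0.62 (adjusted p = 0.0156). ANGPTL4, a secreted inhibitor of lipoprotein lipase, went from 26.7 and 30.5 to 384 and 115, a rise of 2.84 ± 0.63 (adjusted p = 0.0163). In both, the 240 min libraries differed by more than 2-fold. SOCS3 was not called without the first 0 min library (adjusted p = 0.0693), the second 0 min library (0.0704) or the second 240 min library (0.0864). ANGPTL4 was not called without the first 0 min library (adjusted p = 0.074), the second 0 min library (0.0718) or the first 240 min library (0.0671).

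The largest falls included genes of cell death and growth arrest. BMF, a pro-apoptotic BH3-only protein, stood at 194 and 323 normalized counts at 0 min and at 23.5 and 30 at 240 min, and it fell by 3.19 ± 0.38 (adjusted p = 0.000854, limma-trend). TNFSF10, the death ligand TRAIL, stood at 2169 and 3195 and then at 709 and 687, a change of -1.91 ± 0.22. DDIT4L, an inhibitor of mTORC1, stood at 384 and 635 and then at 80.8 and 103, a change of -2.42 ± 0.26. Each had both 240 min values far below both 0 min values. KLHL24, a substrate adaptor of a ubiquitin ligase, stood at 235 and 255 and then at 54.2 and 37.0, a change of -2.42 ± 0.18. CCNG2, an atypical cyclin linked to growth arrest, went from 470 and 616 to 128 and 146 (-1.97 ± 0.19), and BTG2, an antiproliferative cofactor of mRNA deadenylation, from 207 and 140 to 58.3 and 32.0 (-1.96 ± 0.34). In these 3 genes both 240 min values lay more than 2-fold below both 0 min values.

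SRGAP3, VAV3 and RASGEF1B, which regulate small GTPases, were among the largest falls too. SRGAP3, a GTPase-activating protein, went from 185 and 174 normalized counts to 45.0 and 26.0 (-2.35 ± 0.28). VAV3, a guanine nucleotide exchange factor, went from 1264 and 1254 to 446 and 261 (-1.88 ± 0.20). SLC2A12, a glucose transporter, went from 194 and 184 to 65.5 and 41.0 (-1.85 ± 0.23), and COLCA1 from 367 and 508 to 96.2 and 98.1 (-2.14 ± 0.18). In these 4 genes both 0 min libraries lay far above both 240 min libraries. RASGEF1B, another exchange factor, went from 111 and 228 to 21.5 and 56.0 (-2.16 ± 0.52, adjusted p = 0.0224). KIT, the receptor of stem cell factor, went from 176 and 67.2 to 35.8 and 14.0 (-2.22 ± 0.63, adjusted p = 0.0434). In RASGEF1B and KIT the libraries of either time differed by more than 2-fold. RASGEF1B was not called without the second 0 min library (adjusted p = 0.129) or the first 240 min library (0.105). KIT was not called without the first 0 min library (adjusted p = 0.199) or the second 240 min library (0.218), nor by edgeR (0.0524) or with no filter (0.0656).

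**Figure D2:**
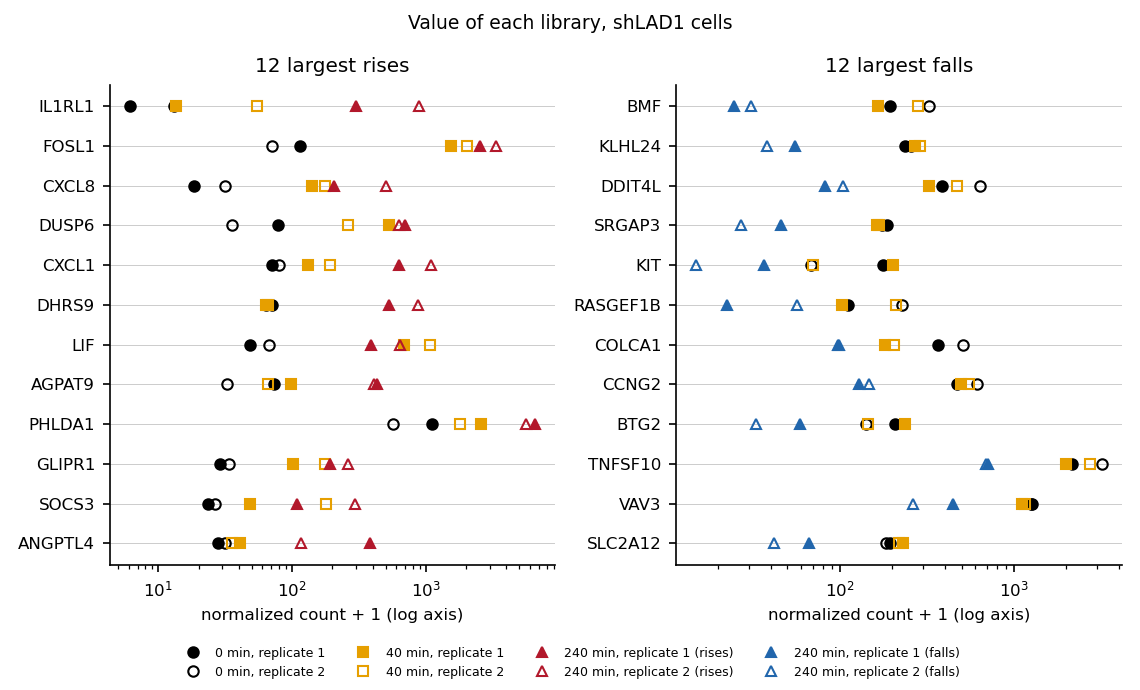
Normalized counts (log axis) of the 12 genes with the largest rises and the 12 with the largest falls in each shLAD1 library at 0, 40 and 240 min. The rule that chose them asked for 0 and 240 min libraries that do not overlap, and LIF is higher at 40 than at 240 min.

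Of the immediate early transcription factors, the first genes that ERK induces, 15 of 27 tested were still higher at 240 min and 1 was lower, with a median change of 0.85 against -0.008 over all genes. The shares to set beside this and later list counts are those of all genes tested. Of these 10.8% rose and 7.76% fell, or 17.2% and 13.3% with the replicate block. MAFF, a small MAF protein, stood at 62.6 and 53.9 normalized counts at 0 min and 398 and 387 at 240 min, a rise of 2.73 ± 0.17 (adjusted p = 6.88e-05). MYC, a regulator of growth, stood at 1195 and 1239 and then at 3326 and 3318 (1.45 ± 0.14), and the epithelial factor KLF4 at 628 and 594 and then at 1363 and 1315 (1.13 ± 0.10). In all 3 the replicates lay close together and the groups apart. FOS and EGR1, chosen after their values were seen, also ended above their starting level: FOS went from 269 and 292 to 484 and 424 (0.69 ± 0.12) and EGR1 from 358 and 646 to 1997 and 1495 (1.84 ± 0.27). The nuclear receptor NR4A2 was the gene called lower (-0.81 ± 0.18), and its call was lost without the second 0 min library (adjusted p = 0.0778) or the first 240 min library (0.0768). ATF3, a stress-induced factor, stood at -1.22 and was not called (adjusted p = 0.0647), but was called with the replicate block (0.00195). Falls in this list numbered 2 with the replicate block or with total-count scaling and 0 without the second 0 min library.

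Among inhibitors that feed back on ERK and EGFR, 13 of 22 rose and 2 fell, with a median of 1.26. DUSP7, a phosphatase of ERK, stood at 305 and 245 normalized counts and then at 966 and 1000 (1.84 ± 0.12, adjusted p = 7.42e-05). ERRFI1, which binds and inhibits EGFR, stood at 1204 and 1028 and then at 4039 and 3819 (1.82 ± 0.13), and DUSP5, a nuclear ERK phosphatase, at 458 and 387 and then at 1232 and 1357 (1.62 ± 0.15). All of these groups were apart. The 2 that fell were LRIG1 (-0.80 ± 0.13), which promotes the degradation of EGFR family receptors, and DUSP16 (-0.46 ± 0.09). Of 14 ETS and other ERK-driven transcription factors 7 rose and 2 fell (falls numbered 1 without the second 0 min library, the first 240 min library or the second 240 min library). ETS1 went from 445 and 407 to 1118 and 1514 (1.61 ± 0.16), ETS2 from 547 and 499 to 1131 and 1238 (1.18 ± 0.08) and the SRF partner ELK3 from 311 and 457 to 919 and 1237 (1.5 ± 0.21). EHF, an epithelial ETS factor, moved the other way, from 2043 and 1703 to 751 and 737 (-1.32 ± 0.12). The other fall, ELF3 (-0.50), was lost without the second 0 min library (adjusted p = 0.187), the first 240 min library (0.129) or the second 240 min library (0.0961).

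In the EGF family 10 ligands and receptors were tested, of which 5 rose and 2 fell. The amphiregulin gene AREG, an EGFR ligand, was a low-abundance RNA, at 4.11 and 4.07 normalized counts at 0 min and 57.3 and 72.0 at 240 min (3.68 ± 0.41, adjusted p = 0.000661). The ligand HBEGF went from 81.1 and 53.9 to 298 and 275 (2.10 ± 0.21) and the ligand TGFA from 521 and 508 to 868 and 829 (0.72 ± 0.08). The receptor ERBB3 fell from 3288 and 2911 to 1899 and 1511 (-0.87 ± 0.12, adjusted p = 0.00158). In these 4 genes the groups were well apart. EGFR itself stood at 2210 and 3222 at 0 min and 4213 and 4658 at 240 min and rose by 0.73 ± 0.20 (adjusted p = 0.0336). That call was lost without the first 0 min library (adjusted p = 0.151), the first 240 min library (0.0804) or the second 240 min library (0.152) and with total-count scaling (0.0513).

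Of 22 NF-kB, chemokine and cytokine genes 11 rose and 1 fell, with a median of 1.14. RELB, a subunit of NF-kB, went from 122 and 143 normalized counts to 347 and 620 (1.80 ± 0.26, adjusted p = 0.00222), beside the chemokines and LIF above. CXCL1, CXCL2 and CXCL3 are closely similar genes, so their split of reads is uncertain. The count of rises was 6 without the first 0 min library or the second 240 min library. Of 17 cytokine receptor and STAT genes 5 rose and 1 fell (rises numbered 8 with the replicate block, and falls numbered 0 without the second 0 min library or the second 240 min library). IL6R, a receptor chain for interleukin 6, went from 48.3 and 64.1 to 221 and 308 (2.21 ± 0.25), OSMR, for oncostatin M, from 1911 and 2192 to 4650 and 6336 (1.41 ± 0.15), and IL4R, for interleukin 4, from 1066 and 957 to 2397 and 2911 (1.39 ± 0.13). The transcription factor STAT3 (0.26, called with the replicate block, adjusted p = 0.00914), which acts below several of these receptors, was not called.

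Among 30 actin cytoskeleton genes 15 rose and 0 fell, with a median of 0.56. MYO1E, a class I myosin, went from 915 and 795 normalized counts to 3008 and 3119 (1.84 ± 0.10, adjusted p = 3.91e-05). VCL, which links integrin adhesions to actin, went from 1381 and 1495 to 3072 and 3772 (1.24 ± 0.10), and the tropomyosin TPM4 from 4683 and 4643 to 8759 and 10743 (1.06 ± 0.12). The groups of these genes were far apart. WDR1, a cofactor of cofilin, rose less, from 4875 and 4672 to 6991 and 7802 (0.63 ± 0.08). FLNA, filamin A, stood at 24855 and 21901 at 0 min and at 36827 and 33794 at 240 min. Its groups did not overlap, and its change of 0.60 ± 0.19 was not called (adjusted p = 0.0562) but was called with the replicate block (0.00251). Of 16 genes driven by SRF and MRTF 7 rose and 0 fell. The LIM-domain cofactor FHL2 went from 296 and 299 to 1155 and 1262 (2.02 ± 0.13), SRF itself from 781 and 758 to 1381 and 1632 (0.96 ± 0.12) and ACTG1 from 14358 and 12659 to 30488 and 42601 (1.42 ± 0.18). SRF and ACTG1 are the genes shown with CArG boxes. ACTG1 and ACTB have near-identical coding sequences, so reads may be split between them.

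Of 16 focal adhesion genes 7 rose and 1 fell (falls numbered 2 without the first 240 min library), and the tensins moved apart. TNS4 went from 154 and 156 normalized counts to 926 and 1139 (2.72 ± 0.19, adjusted p = 7.5e-05), while TNS3 went from 1510 and 1694 to 1034 and 930 (-0.71 ± 0.09). BCAR1, the adhesion scaffold p130Cas, went from 1668 and 1674 to 2968 and 3030 (0.84 ± 0.10). Of 11 integrin subunits 7 rose and 0 fell. ITGA2, a subunit of a collagen receptor, went from 1289 and 1234 to 3944 and 4265 (1.70 ± 0.10, adjusted p = 3.99e-05). ITGA3, a laminin receptor subunit, went from 2301 and 2554 to 5076 and 5628 (1.14 ± 0.11), and ITGA6, the partner of ITGB4, from 1289 and 913 to 3490 and 3063 (1.59 ± 0.20). The rises of ITGB6 (0.68 ± 0.11) and ITGB4 (0.47 ± 0.08) were smaller.

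Ladinin-1 is associated with anchoring filaments of the basement membrane, where hemidesmosomes attach. Of 11 hemidesmosome and laminin-332 genes 4 rose and 0 fell. PLEC, which ties hemidesmosomes to keratin filaments, went from 12970 and 14243 normalized counts to 29935 and 34008 (1.23 ± 0.13, adjusted p = 0.000503), and the laminin chain LAMB3 from 5400 and 5532 to 10275 and 10379 (0.92 ± 0.11). LAD1 rose by 1.31 ± 0.13 (adjusted p = 0.000431), from the levels given above. Of 14 desmosome and adherens junction genes 5 rose and 0 fell (rises numbered 11 with the replicate block, 3 with upper-quartile scaling or with total-count scaling and 2 without the second 0 min library, the first 240 min library or the second 240 min library). PKP2, a desmosomal plaque protein, went from 623 and 561 to 1623 and 1885 (1.56 ± 0.11), and the adherens junction protein CTNNB1 from 2324 and 2278 to 3320 and 3610 (0.59 ± 0.10). Of 20 cornified envelope and squamous genes 1 rose (5 with the block): IVL, involucrin, went from 1264 and 1636 to 2751 and 2529 (0.87 ± 0.16). The median change of this list was 0.66 and 0 members fell, with standard errors of up to 0.92 (SPRR1B). So few calls do not show that its other members stayed level.

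Of 19 plasminogen activators, matrix proteases and inhibitors 6 rose and 0 fell. PLAUR, the receptor of urokinase, went from 1013 and 578 normalized counts to 2060 and 2055 (1.43 ± 0.25, adjusted p = 0.00533). The serpin SERPINB5 went from 1265 and 1680 to 3050 and 4375 (1.32 ± 0.21), and the hyaluronan receptor CD44 from 4531 and 4059 to 7916 and 7808 (0.87 ± 0.07). The count of rises was 3 without the first 0 min library or the second 240 min library.

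**Figure D3:**
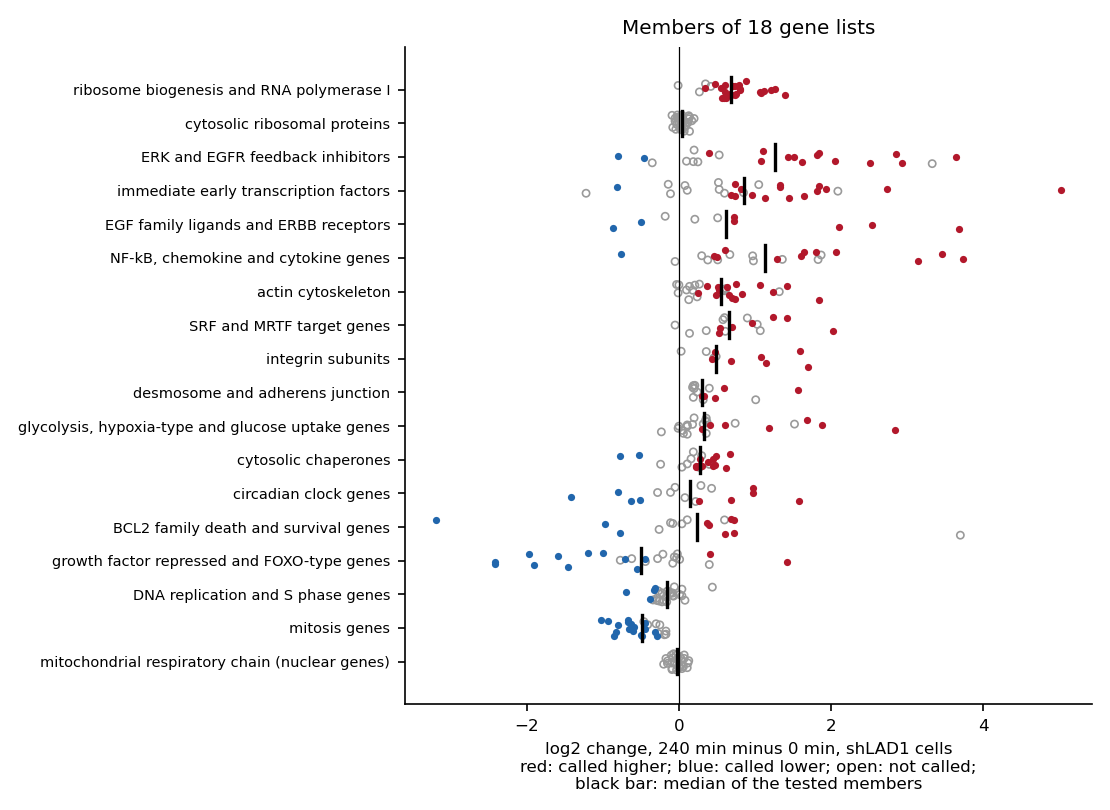
Log2 change from 0 to 240 min in shLAD1 cells (x axis) of every tested member of 18 gene lists, with called genes coloured and the median of each list marked. Ribosome biogenesis genes lie to the right of 0 (26 of 30 called higher), mitosis genes to the left (17 of 25 called lower).

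Ribosome biogenesis moved in a single direction: 26 of 30 genes rose and 0 fell (20 to 24 rises with any 1 library left out), with a median of 0.68. DDX21, a helicase of rRNA processing, went from 1886 and 1745 normalized counts to 4451 and 4272 (1.26 ± 0.09, adjusted p = 7.42e-05). WDR43, a subunit of the small-subunit processome, went from 648 and 665 to 1387 and 1460 (1.12 ± 0.09). NOP2, an rRNA methyltransferase, went from 926 and 871 to 1869 and 1875 (1.06 ± 0.10), and the pseudouridine synthase DKC1 from 2036 and 2003 to 3352 and 3263 (0.71 ± 0.07). In each the replicates lay close together and the groups apart. WDR43 and NOP2 carry the E-box letters shown above. Changes of the 37 cytosolic ribosomal proteins ranged from -0.09 to 0.20 and 0 were called (2 rose and 0 fell with the replicate block).

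Other growth machinery moved less or in both directions. Among all genes tested 10.8% rose and 7.76% fell (17.2% and 13.3% with the replicate block). The falls of the chaperone, nuclear import and nucleotide lists and both counts of the synthetases lay near the shares without the block. Of 22 cytosolic chaperones 12 rose and 2 fell. HSPA8, the constitutive Hsp70, went from 15097 and 15034 normalized counts to 22927 and 25216 (0.67 ± 0.07, adjusted p = 0.000351), and the chaperonin subunits CCT6A (0.48 ± 0.07) and CCT2 (0.62 ± 0.10) also rose. The chaperone rises numbered 5 with total-count scaling, 6 without the second 0 min library and 7 without the second 240 min library, and the falls 1 without the first 0 min library or the second 0 min library and 0 without the second 240 min library. Of 26 nuclear pore and import genes 7 rose and 2 fell. KPNA4, an import receptor, went from 1892 and 1862 to 3285 and 3220 (0.79 ± 0.07), and the receptors KPNB1 (0.45 ± 0.06) and IPO4 (0.66 ± 0.10) rose too. The rises in this list were 4 with total-count scaling or without the first 0 min library and 3 without the second 240 min library, and the falls 4 with total-count scaling, 1 without the first 0 min library or the first 240 min library and 0 without the second 0 min library or the second 240 min library. Of 23 genes of nucleotide and one-carbon synthesis 5 rose and 2 fell, with PPAT, the committed step of purine synthesis, going from 225 and 223 to 358 and 415 (0.78 ± 0.11). Falls of that list numbered 1 without the first 0 min library, the second 0 min library or the first 240 min library and 0 without the second 240 min library. Of 20 aminoacyl-tRNA synthetases 2 rose and 1 fell. The synthetase rises numbered 5 with the replicate block and 1 without the second 0 min library or the second 240 min library, and the falls 2 with upper-quartile scaling or without the first 0 min library, 3 with total-count scaling and 0 without the second 0 min library. Of 26 proteasome subunits 1 rose (0 with upper-quartile scaling or with total-count scaling or without the first 0 min library or the second 240 min library). Of 27 respiratory chain genes 0 rose and 0 fell (falls numbered 2 with the replicate block, 1 with upper-quartile scaling and 4 with total-count scaling). The medians of the synthetase, proteasome and ribosomal protein lists were 0.05, 0.05 and 0.04, and -0.07, -0.07 and -0.08 with total-count scaling.

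Of 24 glycolysis, hypoxia-type and glucose uptake genes 7 rose and 0 fell (rises numbered 14 with the replicate block and 4 without the second 0 min library). HK2, a hexokinase, went from 436 and 467 normalized counts to 1472 and 1439 (1.69 ± 0.09, adjusted p = 2.4e-05). NDRG1, a stress-responsive gene, went from 1301 and 878 to 4381 and 3535 (1.88 ± 0.25), and LDHA, lactate dehydrogenase A, from 5051 and 5177 to 6816 and 6796 (0.41 ± 0.06). Of 20 cholesterol genes 1 fell (2 with the replicate block). The fall was LSS, lanosterol synthase (-0.48), lost without the first 0 min library (adjusted p = 0.124), the second 0 min library (0.0977), the first 240 min library (0.0978) or the second 240 min library (0.132).

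The list of genes that growth factors repress holds many FOXO targets, and of its 24 tested members 11 fell and 2 rose, with a median of -0.50. Beside KLHL24, DDIT4L, CCNG2 and TNFSF10, TXNIP, an inhibitor of thioredoxin, went from 2260 and 2674 normalized counts to 779 and 852 (-1.59 ± 0.13, adjusted p = 0.000157). TXNIP carries the forkhead letters shown above. The other members found to hold them were FOXO4 (-0.28) and BTG1 (-0.02), not called, and YPEL3 (-0.45), called lower. KLHL24, DDIT4L, CCNG2 and TNFSF10 were not among the genes found to hold them. Other members, such as FBXO32 (-0.21), IRS2 (-0.03) and CITED2 (0.01), were not called. The rises were GADD45A (1.42) and FOXO3 (0.41). Rises of the list numbered 1 without the first 0 min library or the second 0 min library and 0 without the second 240 min library. The call of GADD45A was lost without the second 0 min library (adjusted p = 0.0532) or the second 240 min library (0.0579), and that of FOXO3 without the first 0 min library (adjusted p = 0.0729) or the second 240 min library (0.0705). Of 16 BCL2 family genes 6 rose and 3 fell. The anti-apoptotic BCL2L1 rose from 811 and 629 to 1216 and 1134 (0.72 ± 0.12), but so did the pro-apoptotic PMAIP1, from 176 and 186 to 270 and 282 (0.61 ± 0.10), and BAK1 (0.68 ± 0.12). The falls were BMF, BCL2L11 (-0.78 ± 0.17) and BBC3 (-0.97 ± 0.27), all pro-apoptotic. BCL2L11 was not called without the first 0 min library (adjusted p = 0.071) or the second 240 min library (0.0766), and BBC3 was not called with any 1 of the 4 libraries left out: without the first 0 min library (adjusted p = 0.149), the second 0 min library (0.0798), the first 240 min library (0.0821) or the second 240 min library (0.151). The rises of this list were 3 without the second 240 min library, and the falls 1 without the first 0 min library or the second 240 min library.

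Stress genes were split. Of 19 ATF4-type genes of amino acid stress 4 fell and 3 rose (rises numbered 1 without the first 0 min library, the second 0 min library or the second 240 min library, and falls numbered 7 with the replicate block or with total-count scaling). SESN2, an inhibitor of mTORC1, went from 667 and 549 normalized counts to 231 and 204 (-1.47 ± 0.16, adjusted p = 0.000611). CHAC1, which degrades glutathione, went from 273 and 242 to 89.0 and 57.0 (-1.84 ± 0.21), and DDIT3, the factor CHOP, from 194 and 153 to 99.2 and 80.0 (-0.94 ± 0.17). PPP1R15A, a phosphatase subunit that restores translation, moved the other way, from 635 and 614 to 976 and 1135 (0.75 ± 0.13). ASNS (-0.22), ATF4 (-0.11) and TRIB3 (-0.05) were not called. Of 16 genes of the unfolded protein response 4 fell and 1 rose. The falls numbered 1 without the second 0 min library or the second 240 min library and 2 without the first 240 min library. The rise was DNAJB11 (0.53 ± 0.14), a co-chaperone of the endoplasmic reticulum, a call lost without the second 0 min library (adjusted p = 0.181), the first 240 min library (0.155) or the second 240 min library (0.0546) and with total-count scaling (0.0861). Rises numbered 3 with the replicate block. HERPUD1, a factor of ER-associated degradation, went from 1166 and 1105 to 499 and 385 (-1.37 ± 0.12), while the chaperone HSPA5 (-0.07) was not called.

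Of 25 mitosis genes 17 fell and 0 rose (13 to 17 falls with any 1 library left out), with a median of -0.49. TOP2A, the topoisomerase of mitotic chromosomes, went from 3829 and 3949 normalized counts to 2128 and 1729 (-1.02 ± 0.10, adjusted p = 0.000425). NDC80, a kinetochore subunit, went from 1089 and 1191 to 596 and 599 (-0.93 ± 0.10), and the kinetochore protein CENPF from 4253 and 4289 to 2651 and 2118 (-0.85 ± 0.11). The groups of these 3 genes were apart, while CDC20 (-0.17), AURKB (-0.17) and PLK1 (-0.25, called with the replicate block, adjusted p = 0.00931) were not called. Of 27 replication genes 4 fell and 0 rose. The rises were 1 with the replicate block or without the first 0 min library, and the falls 9 with the replicate block, 11 with total-count scaling and 2 without the first 0 min library, the second 0 min library or the second 240 min library. ORC1, of the origin recognition complex, went from 735 and 760 to 458 and 465 (-0.69 ± 0.08). Of 16 G1 cyclins and CDK inhibitors 2 rose and 3 fell (rises numbered 4 with the replicate block, and falls numbered 5 with the replicate block or with total-count scaling and 1 without the first 0 min library, the second 0 min library or the second 240 min library). CDKN1A, the inhibitor p21, rose from 1385 and 1904 to 4226 and 5949 (1.63 ± 0.25), while CDKN2C, the inhibitor p18, fell from 2353 and 2850 to 1010 and 1216 (-1.22 ± 0.14). CCND1, cyclin D1, went from 458 and 1018 to 1496 and 3778, a change of 1.80 ± 0.53 that was not called (adjusted p = 0.0512) but was called with the replicate block (0.01). Its second library was more than 2-fold above the first at both times, and within the numbers the changes were 1.71 and 1.89.

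The circadian clock list had calls in both directions: 5 of 16 rose and 4 fell. NPAS2, of the activating arm, went from 425 and 570 normalized counts to 1311 and 1667 (1.58 ± 0.20, adjusted p = 0.00114), and the repressor CRY1 from 414 and 373 to 781 and 756 (0.97 ± 0.14). DBP, an output gene of the clock, went from 372 and 454 to 156 and 150 (-1.42 ± 0.12). The rises were 3 without the first 0 min library and 2 without the second 240 min library, and the falls 1 without the second 0 min library or the first 240 min library and 2 without the second 240 min library. Of 15 mRNA decay factors 2 rose and 4 fell. ZFP36L2 and ZFP36, which target AU-rich RNAs for decay, rose from 2256 and 2217 to 6180 and 5773 (1.42 ± 0.09) and from 807 and 800 to 1439 and 1726 (0.97 ± 0.14). The exonuclease XRN1 fell from 1064 and 1054 to 648 and 587 (-0.78 ± 0.07), and the falls in this list were 2 without the second 0 min library, the first 240 min library or the second 240 min library. With the replicate block 4 of the decay factors rose and 6 fell, and falls numbered 6 with upper-quartile and 6 with total-count scaling.

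A comparison of 240 with 40 min in shLAD1 cells shows which of these levels differed between those times. No time between them was sampled. It called 2288 genes (16.4%), 1233 higher (8.84%) and 1055 lower (7.56%) at 240 min. It uses the same 240 min libraries as the comparison above, so values are given side by side. DHRS9 stood at 62.8 and 65.0 normalized counts at 40 min, near its starting level, and rose by 3.39 ± 0.22 afterwards (adjusted p = 7.93e-05, limma-trend). ITGA2 (1357 and 1251 at 40 min) and HK2 (485 and 494) were likewise near their 0 min levels and rose by 1.65 and 1.57 afterwards. FOSL1 already stood at 1537 and 2015 at 40 min, and its later change of 0.73 ± 0.30 was not called (adjusted p = 0.144). LIF had been higher at 40 min (690 and 1077), with a later change of -0.79 that was not called (adjusted p = 0.0964).

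Of 27 immediate early genes 17 were lower at 240 than at 40 min and 2 higher. FOS fell by 5.10 from 15050 and 16135 normalized counts at 40 min (adjusted p = 9.04e-08, limma-trend), EGR1 fell by 4.31 from 31851 and 37098, and MAFF fell by 1.23 from 933 and 914. These 3 stood far higher at 40 min than at either other time. Feedback inhibitors were split, with 7 lower and 7 higher: DUSP5 fell by 2.03 from 4498 and 6178, while DUSP7 rose by 1.97 from 253 and 246. ZFP36 (5238 and 6883) had also passed a higher level at 40 min. Of 30 ribosome biogenesis genes 25 were higher at 240 than at 40 min, of 25 mitosis genes 18 were lower, and of 24 genes repressed by growth factors 11 were lower and 2 higher. All 12 leading falls were called lower than at 40 min, where KLHL24 (268 and 289) was near its 0 min level. Among all 1083 called falls 790 were called lower than at 40 min and 0 higher. Of the 12 leading rises 6 were called higher than at 40 min and 0 lower, beside 1072 and 31 of all 1502 called rises. All these genes were chosen by the same 240 min libraries. Leaving out the first 40 min library gave 1445 calls, the second 1231, and the second 240 min library 1087.

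**Figure D4:**
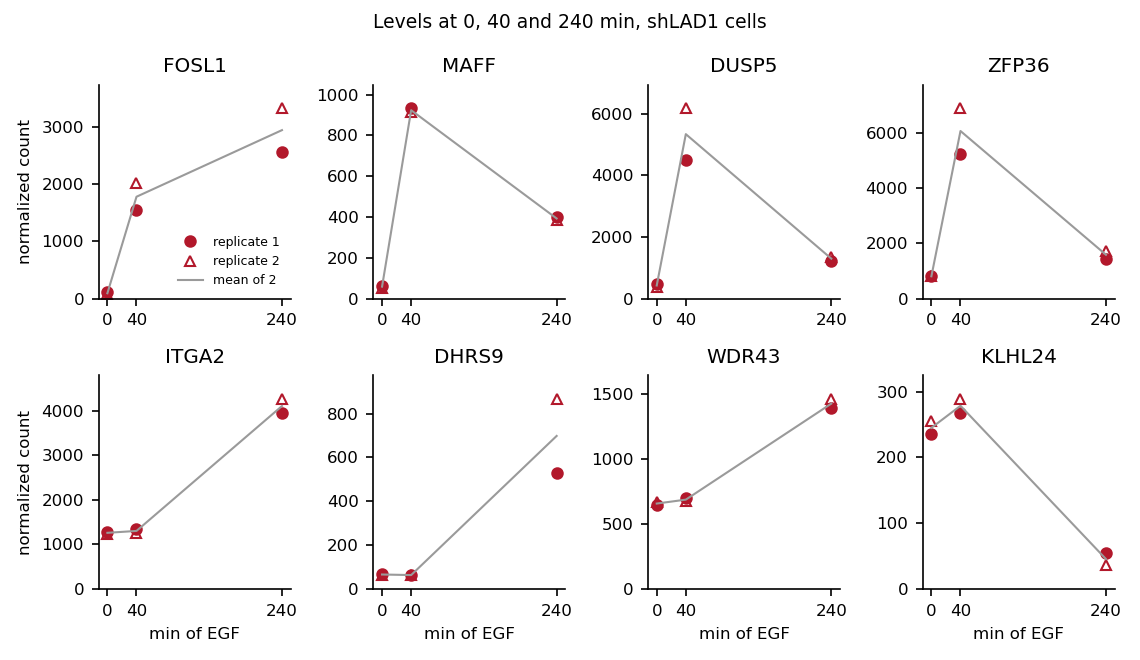
Normalized counts of 8 genes in the shLAD1 libraries by minutes of EGF (x axis), with a symbol per library. MAFF, DUSP5 and ZFP36 are highest at 40 min, ITGA2, DHRS9 and WDR43 at 240 min, and KLHL24 is lowest at 240 min.

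Whether the 240 min change differs between shLAD1 and scramble cells was tested gene by gene, with both changes in a single fit. At an adjusted p under 0.05 limma-trend called 0 of 13950 genes (0%), with 133 at an unadjusted p under 0.05. edgeR called 0 (135 unadjusted), DESeq2 0 (45) and the replicate block 0 (340), while the block within each shRNA called 27 (1013). The median half-width of the 95% interval of the difference was 0.48 on the log2 scale over all genes and 0.37 over the 2585 genes called at 240 min.

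All 12 leading rises and all 12 leading falls had the same direction in scramble cells and were called there, and none of their differences passed the test with limma-trend. Being called in scramble cells was common among all called genes: 1283 of the 1502 rises (85.4%) and 821 of the 1083 falls (75.8%) were called there in the same direction. Over all genes tested the scramble comparison called 20.2%, 11.7% higher and 8.44% lower. IL1RL1 was at 0 in both scramble libraries at 0 min and at 171 and 212 normalized counts at 240 min, so the size of its change there depends on the pseudocount. CXCL8 rose by 3.74 in shLAD1 and by 2.0 in scramble cells, a difference of 1.74 (95% interval 0.45 to 3.02, unadjusted p = 0.0138 by limma-trend). In scramble cells it started higher, at 119 and 109 normalized counts, and reached 496 and 422. LIF likewise started at 135 and 149 in scramble cells and reached 550 and 442 (difference 1.34, 0.44 to 2.25). Both differences were called with the block within each shRNA (adjusted p = 0.0029 and 2.81e-05). The 95% interval of the difference was -1.22 to 1.35 for DUSP6, -0.51 to 1.42 for FOSL1 and -0.45 to 0.73 for KLHL24.

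The 5 genes with the smallest p of the difference, all at an adjusted p of 1.0 by limma-trend, were SH3RF2, MSMP, MYO1E, LAD1 and DST. SH3RF2, a RING and SH3 domain protein, stood at 397 and 341 normalized counts and then 428 and 456 in shLAD1 cells, against 267 and 277 and then 485 and 527 in scramble cells (difference -0.63 ± 0.15). MYO1E rose by 1.84 in shLAD1 and by 2.36 in scramble cells (difference -0.52 ± 0.15). LAD1 rose by 1.31 and by 0.64 (difference 0.67 ± 0.19, 95% interval 0.24 to 1.10). DST, a cytoskeletal linker of hemidesmosomes, changed by 0.10 and 0.44 (difference -0.34 ± 0.10). SH3RF2, MYO1E, LAD1 and DST were called with the block within each shRNA (adjusted p = 0.0341, 0.00955, 1.42e-05 and 0.0353), and MSMP was not (0.183). For FLNA the difference was -0.14 (95% interval -0.74 to 0.45) and for EGFR 0.14 (-0.50 to 0.77). The scramble medians were 0.63 for ribosome biogenesis, 0.65 for actin, -0.57 for mitosis and -0.44 for genes repressed by growth factors, beside 0.68, 0.56, -0.49 and -0.50 in shLAD1 cells.

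**Figure D5:**
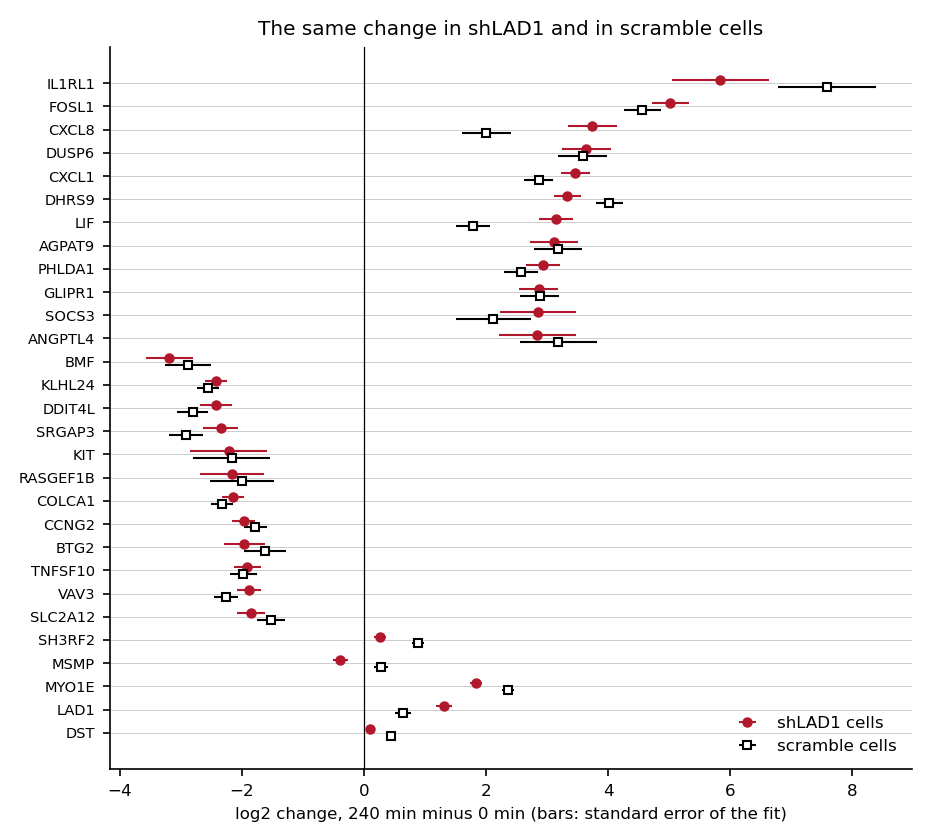
Log2 change from 0 to 240 min (x axis) in shLAD1 and in scramble cells, with standard errors as bars, for the leading rises and falls and the 5 genes with the smallest p of the difference. Both symbols lie on the same side of 0 for every leading gene, and CXCL8 and LIF lie further right in shLAD1 cells by 1.74 and 1.34.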

How the data were processed

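Poly-A RNA of 12 libraries (6 groups of 2) was sequenced, per the labels' protocols. STAR, DESeq2 and the build hg19 are named in the submitters' processing notes; tool versions, the counter, the annotation and the use of strand were not stated in the sources used, so overlapping genes may share reads. The authors deposited 1 table of 26365 gene symbols whose signal columns hold size-factor-normalized counts; division by the value of 1 read gave whole reads for 100.0% of values (tolerance 0.001). The deposited log2 fold change, score and p-value columns were not used.

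Genes that reached 10 normalized counts in 2 or more libraries were tested with limma-trend (limma 3.58.1, robust, R 4.3.3) on log2(normalized count + 1), a scale that understates changes of low genes, with 1 mean per group over the 12 libraries and Benjamini-Hochberg adjustment over 13950 genes. edgeR 4.0.16 and DESeq2 1.42.0 on the recovered reads were alternatives, with other scalings, pseudocounts, filters, blocks and left-out libraries. The scripts were tested on simulated data.

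Replicate numbers pair the samples: deviations from group means correlated at 0.645 to 0.734 in 6 group pairs of the same shRNA and at 0.247 to 0.307 in 9 of different shRNAs. The main fit and the fits with a library left out did not use this pairing. Only the fits with a replicate block did.

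Named genes are the 12 largest called rises and falls (mean of at least 50, groups apart, same direction in both numbers). Also named are up to 4 called members of each of 39 lists, those with the smallest adjusted p. So are the 5 genes with the smallest p of the difference, and LAD1, FLNA and EGFR. Other genes were chosen after their values were seen. Members, lists and tests were chosen with earlier results of these data known. Some genes of the lists are not reported here.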

Additional observations from a re-analysis of the deposited data

Results flagged for a closer look

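MSMP moved in opposite directions in the 2 kinds of cells in both replicate numbers. It stood at 160 and 183 normalized counts at 0 min and 139 and 122 at 240 min in shLAD1 cells, and at 132 and 140 and then 169 and 161 in scramble cells. The difference was -0.67 ± 0.18 (95% interval -1.06 to -0.27), not called (adjusted p = 1.0, limma-trend).

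The 20 cholesterol synthesis and sterol control genes had a median change of 0.13 in shLAD1 and -0.02 in scramble cells. Their median was above 0 in both replicate numbers of shLAD1 cells and below 0 in both of scramble cells, and the median of the members' differences was 0.17; this difference was not tested. These values are on the deposited scaling. The shLAD1 median was 0.07 with upper-quartile and 0.00 with total-count scaling.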

How the results depend on the processing

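For 240 against 0 min, the replicate block called 4249 genes (2398 higher, 1851 lower), the replicate block within each shRNA 6450 (3440, 3010), and a fit of only the groups compared 300 (248, 52), against 2585 (1502, 1083). Total-count scaling called 1016 higher and 1915 lower, and upper-quartile factors 1236 and 1372. With 1 library left out, where the lone sample is assumed to vary like the other groups, 1303 to 1888 genes were called, 802 to 1143 higher and 469 to 745 lower. For 240 against 40 min, the replicate block called 4004 (2131, 1873), the block within each shRNA 6218 (3259, 2959), only the groups compared 150 (85, 65), and left-out libraries 1087 to 1601 (552 to 848 higher, 535 to 753 lower). The difference between the cells had 27 calls with the block within each shRNA and 0 with each of 8 libraries left out.

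Of 143 named genes, the replicate block gave the call to 2 and changed no other call. DESeq2 changed the call of 2 to not called and gave it to 1, and total-count scaling did so for 6 and 1 and turned the direction of DST (-0.03, not called in either). With only the groups compared 69 lost the call, a fit with fewer samples. The causes of the other shifts were not tested.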

Other observations

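For the signalling lists below, counts are given by limma-trend and with the replicate block, which called 2585 and 4249 of all genes tested between 0 and 240 min in shLAD1 cells. These were 10.8% higher and 7.76% lower by limma-trend, and 17.2% and 13.3% with the block. Of 12 Notch pathway genes 0 rose and 0 fell by limma-trend (2 and 1 with the replicate block), and of 9 prostaglandin genes 0 rose and 0 fell (1 and 1), with the cyclooxygenase gene PTGS2 at -0.15. Of 15 WNT pathway genes 1 rose, the receptor-degrading ligase ZNRF3, from 200 and 188 normalized counts to 337 and 354 (0.83 ± 0.11), and 1 fell, NKD1 (-0.62), a call lost without the first 0 min library (adjusted p = 0.173), the first 240 min library (0.0821) or the second 240 min library (0.137). With the block 4 WNT genes rose and 1 fell. Of 20 interferon-stimulated genes 1 rose and 2 fell, with the exonuclease ISG20 going from 190 and 172 to 323 and 378 (0.95 ± 0.15). The interferon rises numbered 2 with the replicate block, and the falls 6 with the replicate block, 0 without the first 0 min library or the second 240 min library and 1 without the second 0 min library, or 3 without the first 240 min library.

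Of 17 ID, SMAD and TGF-beta family genes 3 rose and 2 fell. Its rises numbered 6 with the replicate block, 1 without the first 0 min library or the first 240 min library and 0 without the second 240 min library, and its falls 0 without the first 0 min library or the second 0 min library and 1 without the first 240 min library or the second 240 min library. The ID proteins, which block basic helix-loop-helix factors, moved apart: ID1 went from 917 and 1211 normalized counts to 1691 and 2003 (0.80 ± 0.21), ID2 from 153 and 134 to 58.3 and 89.0 (-0.98 ± 0.27) and ID3 from 1465 and 1267 to 850 and 622 (-0.90 ± 0.22). ID1 was not called without the first 0 min library (adjusted p = 0.158), the first 240 min library (0.0634) or the second 240 min library (0.163), ID2 without the first 0 min library (adjusted p = 0.127), the second 0 min library (0.0878) or the first 240 min library (0.174), and ID3 without the first 0 min library (adjusted p = 0.104), the second 0 min library (0.0633) or the second 240 min library (0.132). Of the other rises, SMAD3 (1.25 ± 0.29) was not called without the first 0 min library (adjusted p = 0.0993) or the second 240 min library (0.12), and SMAD7 (0.71 ± 0.21) was not called without the second 0 min library (adjusted p = 0.248), the first 240 min library (0.199) or the second 240 min library (0.0898). Of 17 epithelial-mesenchymal markers 2 rose and 2 fell. Marker rises numbered 4 with the replicate block, 1 with upper-quartile scaling or without the second 0 min library or the first 240 min library and 0 with total-count scaling or without the second 240 min library, and falls 1 without the first 0 min library, the second 0 min library or the second 240 min library. The counts of 2 lay near the shares of all genes tested, 10.8% higher and 7.76% lower. The rises were the epithelial junction genes CDH1 (0.30) and OCLN (0.59), and the falls the epithelial transcription factors GRHL2 and OVOL2 (-0.75). The calls of CDH1, OCLN and OVOL2 were each lost with some single libraries left out, and that of GRHL2 with none. GRHL2 went from 1618 and 1830 to 1228 and 1075 (-0.58 ± 0.10), and the mesenchymal filament gene VIM (0.90) was not called.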
